A study of Rattus norvegicus with 15 samples.

Results

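Glycolysis and its control by hypoxia were followed in rat lung through 10 genes picked by symbol: Hif1a, the oxygen-regulated subunit of hypoxia-inducible factor 1, the glucose transporter gene Slc2a1, and the glycolytic genes Hk2, Pfkfb3, Aldoa, Gapdh, Pgk1, Eno1, Pkm and Ldha. Of the 10 symbols, 9 have a row among the 22250 genes, each occurring once, and all 9 were among the 13172 genes tested, whereas Gapdh was not analysed here. The data are RNA sequencing of rat lung, all rats being labelled WT (wild type), with 15 libraries that form 3 groups of 5. The WDD group had been exposed through the trachea to lipopolysaccharide (LPS), a component of the outer membrane of Gram-negative bacteria, and to smoke, and had also been given Wendan Decoction, a Chinese herbal formula, into the stomach. The COPD group had the same tracheal exposure without the decoction and models chronic obstructive pulmonary disease. The control group held rats labelled normal control. Strain, age and dose are not given in the labels, nor whether each library stands for a rat of its own, so that p-values describe only how far these samples spread.

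Glycolysis splits glucose into pyruvate in the cytosol and needs no oxygen. Hypoxia-inducible factor 1 is a pair of Hif1a and Arnt proteins: with enough oxygen, prolyl hydroxylases mark Hif1a for destruction through Vhl, and when oxygen is short, or when LPS stimulates immune cells, Hif1a accumulates and raises transcription of glucose transporters and most glycolytic enzymes. Hif1a is thus controlled largely at the level of its protein, which RNA does not show. Neutrophils and stimulated macrophages draw their energy mainly from glycolysis.

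The core of a hypoxia response element is ACGTG or GCGTG, and the bases before the start site of 6 of these genes are printed to show where such cores stand in genes that differed strongly between groups (Hk2, Pkm, Slc2a1) and in those that did not or that varied between libraries (Hif1a, Pfkfb3, Ldha). The sequences are from RefSeq on build GRCr8, the 250 bases before the start site, read 5′ to 3′ on the strand of the gene. Capitals mark every match to either core on either strand, and CACGTG in capitals holds ACGTG on both strands in overlap.
Hif1a, chr6:98359648-98359897, plus strand: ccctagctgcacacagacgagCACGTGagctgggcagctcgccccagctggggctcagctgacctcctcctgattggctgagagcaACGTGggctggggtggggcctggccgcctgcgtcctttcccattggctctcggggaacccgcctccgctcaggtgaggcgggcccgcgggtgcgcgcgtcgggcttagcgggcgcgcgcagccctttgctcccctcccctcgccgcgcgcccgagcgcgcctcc
Slc2a1, chr5:138002272-138002521, plus strand: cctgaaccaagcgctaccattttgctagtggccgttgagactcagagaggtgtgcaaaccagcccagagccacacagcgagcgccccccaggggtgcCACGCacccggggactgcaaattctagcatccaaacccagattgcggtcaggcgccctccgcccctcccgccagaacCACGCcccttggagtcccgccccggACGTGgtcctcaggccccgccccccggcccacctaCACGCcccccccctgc
Hk2, chr4:116841276-116841525, minus strand: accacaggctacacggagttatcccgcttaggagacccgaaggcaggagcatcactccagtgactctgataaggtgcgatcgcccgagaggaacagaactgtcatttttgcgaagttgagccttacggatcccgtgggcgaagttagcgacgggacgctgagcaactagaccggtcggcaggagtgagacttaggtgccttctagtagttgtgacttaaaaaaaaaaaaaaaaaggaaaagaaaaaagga
Pfkfb3, chr17:71944683-71944932, plus strand: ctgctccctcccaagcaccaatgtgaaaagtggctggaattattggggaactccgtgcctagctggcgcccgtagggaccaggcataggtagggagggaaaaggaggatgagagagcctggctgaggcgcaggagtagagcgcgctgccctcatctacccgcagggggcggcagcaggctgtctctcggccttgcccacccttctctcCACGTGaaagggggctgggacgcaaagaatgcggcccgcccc
Pkm, chr8:68953385-68953634, plus strand: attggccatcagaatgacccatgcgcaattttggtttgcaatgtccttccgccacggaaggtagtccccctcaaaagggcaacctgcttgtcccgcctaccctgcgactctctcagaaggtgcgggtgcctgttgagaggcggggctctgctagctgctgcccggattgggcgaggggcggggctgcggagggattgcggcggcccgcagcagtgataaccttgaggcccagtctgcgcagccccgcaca
Ldha, chr1:106507842-106508091, plus strand: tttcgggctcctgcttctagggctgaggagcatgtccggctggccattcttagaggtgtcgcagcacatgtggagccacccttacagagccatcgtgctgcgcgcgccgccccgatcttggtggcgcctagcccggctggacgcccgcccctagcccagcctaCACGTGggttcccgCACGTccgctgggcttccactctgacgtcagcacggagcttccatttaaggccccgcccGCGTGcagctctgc
The window of Slc2a1 holds 4 matches, whose first bases lie at -153, -76, -51 and -16 counted from the start site. That of Ldha holds 4 as well, at -87, -86, -73 and -14, of which the first and second are the overlapping pair. Hif1a has 3 matches, at -229, -228 and -164, and Pfkfb3 has 2, at -42 and -41, in each case with an overlapping pair. The windows of Hk2 and Pkm hold none, which says only that these letters are not in this window. In all, 8 of the 9 genes have entries in the table, with 11 windows because Aldoa has 3 start sites and Eno1 has 2, and 7 of the 11 windows hold at least 1 match. Of all 33469 rat promoter windows of the same length, 36.7% hold a match to either core, 16.6% to ACGTG and 25.9% to GCGTG. A match describes letters and does not show that the factor binds there.

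The deposited values are FPKM (fragments normalised for transcript length and for the mapped fragments of a library), and levels of different genes were set side by side on this scale. Long and short transcripts still differed between groups, as given below, and what this does to the order of genes was not tested. In control lungs the mean levels ran in the order Aldoa (313 FPKM), Pkm (178 FPKM), Ldha (157 FPKM), Eno1 (117 FPKM), Pgk1 (69.4 FPKM), Pfkfb3 (44.6 FPKM), Hif1a (30.0 FPKM), Slc2a1 (16.0 FPKM) and Hk2 (4.15 FPKM). Of neighbours in this order, Pkm and Ldha overlapped between libraries, and the others did not. Among these genes, Aldoa, Pkm, Ldha, Eno1 and Pgk1 were thus present at higher RNA levels than Slc2a1 and Hk2 at the entry of the pathway. Other glycolytic genes did not all follow this pattern. In control lungs the mean of Pgam1 was 94.4 FPKM, but that of Tpi1 was 1.90 FPKM, below Hk2 (both named after their values were seen). Hk1, another hexokinase gene, had 27.5 FPKM, above Slc2a1. The order of the listed genes was the same in WDD lungs except that Ldha and Pkm changed places, at 138 FPKM each. Again these were the neighbours that overlapped. In COPD lungs Aldoa (469 FPKM) and Pkm (341 FPKM) overlapped with each other and stood apart from the rest, while every pair of neighbours from Eno1 (152 FPKM) down to Hk2 (15.1 FPKM) overlapped. Processed copies of several glycolytic genes are known in rodent genomes, and the sources used here do not say how fragments shared with such copies were counted. The absolute levels of Aldoa, Pgk1, Eno1, Pkm, Ldha, Pgam1 and Tpi1 are uncertain to that extent. The low value of Tpi1 may therefore understate its RNA level, which was not tested.

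Several measures of whole libraries moved with the groups and bear on every comparison below. The 13 mitochondrially encoded genes held 19.1% to 26.5% of the FPKM sum in WDD lungs, 33.7% to 65.0% in COPD lungs and 5.19% to 9.62% in control lungs (exact permutation p = 0.00794 for each pair of groups, two-sided, the smallest p that 5 against 5 allows). Across the 13172 tested genes the median log2 difference was -0.81 for COPD against control, 0.54 for WDD against COPD and -0.23 for WDD against control. Long housekeeping transcripts were lower relative to short ones by 2.06 log2 units in COPD and by 1.73 in WDD lungs, each against control lungs (exact permutation p = 0.00794 for both), while WDD and COPD lungs differed by 0.33 (exact permutation p = 0.286). Of 12 neutrophil markers, 11 were tested, and all 11 were higher in COPD lungs than in control lungs and lower in WDD lungs than in COPD lungs. Their summed level ran from 130 to 714 FPKM in WDD lungs, from 15077 to 50282 FPKM in COPD lungs and from 169 to 264 FPKM in control lungs, with Ltf at 0 in all COPD libraries. Summed markers of alveolar epithelium (12 genes, none at 0 throughout a group) ran from 22481 to 25005, from 3441 to 15240 and from 18754 to 27382 FPKM in WDD, COPD and control lungs, so that this defining tissue was present in all libraries and lowest in the COPD group. Those of macrophages and monocytes (9 genes, Marco at 0 in all control libraries) ran from 11377 to 18824, from 1679.5 to 6992 and from 12539 to 18469 FPKM in the same order of groups. Lyz2 alone held most of these sums, at 11241 to 18631, 1607 to 6778 and 12261 to 18193 FPKM. Cd68 did not follow it, at 47.6 to 81.1, 38.0 to 132 and 67.8 to 84.3 FPKM (both named after their values were seen). Of 8 macrophage markers tested, 5 were lower and 0 higher in COPD than in control lungs, beside 66.4% and 8.23% of all genes. After median-of-ratios scaling 5 were lower and 2 higher, beside 32.6% and 30.0% of all genes. Marco, which was not tested, went the other way, at 0 to 7.04 FPKM in COPD lungs. In bulk tissue, fewer cells of a type and less RNA per cell cannot be told apart, and the part of these shifts in the results below was not tested.

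COPD lungs were set against control lungs to ask what LPS and smoke change. Hk2, Pkm, Pgk1, Aldoa and Slc2a1 were higher in COPD lungs, while Hif1a, Eno1, Pfkfb3 and Ldha did not pass the test. In limma on log2(FPKM + 1), with p-values adjusted by Benjamini-Hochberg over all tested genes and called at an adjusted p under 0.05, 5 of the 9 were higher and 0 were lower. Of all tested genes, 8.23% were higher and 66.4% were lower, and the median of the 9 was 0.50 against -0.81 over all genes. In Hk2 and Pkm all COPD libraries lay above all control libraries, which held for 3.99% of all tested genes, and in none of the 9 did they all lie below, which held for 52.3%.

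WDD lungs were set against COPD lungs to ask what the decoction changes in exposed rats, and this comparison shares the COPD libraries with the one before. Hk2, Pkm, Slc2a1, Hif1a, Pgk1 and Eno1 were lower in WDD lungs, and Aldoa, Pfkfb3 and Ldha did not pass. By the same test 6 of the 9 were lower and 0 were higher, against 6.63% lower and 57.1% higher among all tested genes. The median of the 9 was -0.52 against 0.54 over all genes. In Hk2, Slc2a1, Hif1a and Pkm all WDD libraries lay below all COPD libraries, which held for 4.43% of all tested genes, and in none of the 9 did they all lie above, which held for 40.6%.

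WDD lungs were also set against control lungs, to ask how far treated lungs differ from those never exposed. Slc2a1 and Pkm were lower in WDD lungs, and the other 7 genes did not pass. This count of 2 of 9 lower is no larger a share than the 31.0% of all tested genes that were lower, and 0 of the 9 were higher against 6.35% of all genes. The median of the 9 was -0.26 against -0.23 over all genes. In Hk2, Slc2a1 and Pkm all WDD libraries lay below all control libraries, against 31.4% of all tested genes, and in none did they all lie above, against 6.76%.

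**Figure D1:**
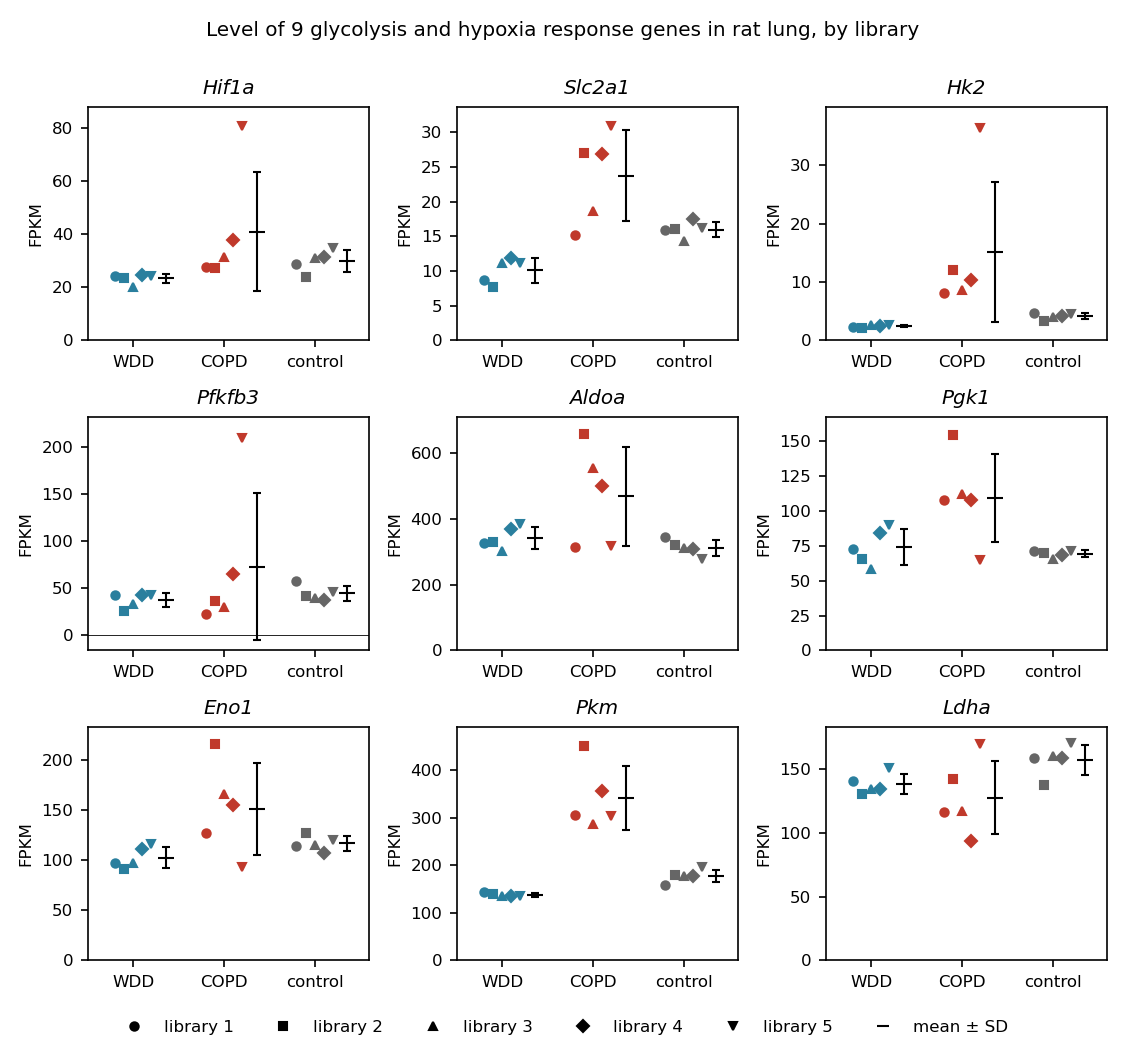
FPKM (vertical axes, linear) of the 9 genes in the 5 WDD, 5 COPD and 5 control libraries, 1 marker shape per library number, with the mean and SD beside each group. Hk2 and Pkm of COPD lungs stand above both other groups without overlap, and COPD library 5 lies far above the rest in Hif1a, Hk2 and Pfkfb3 (where the SD bar reaches below 0).

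Among the regulators, Hif1a had 24.1, 23.5, 20.2, 24.8 and 24.2 FPKM in WDD libraries 1 to 5, 27.7, 27.5, 31.4, 38.0 and 80.6 FPKM in COPD libraries 1 to 5, and 28.7, 23.8, 30.9, 31.4 and 34.9 FPKM in control libraries 1 to 5. The first 3 COPD libraries lay within the range of the controls, COPD 4 slightly above it and COPD 5 at more than any other library, whereas the WDD libraries lay together just under the lowest COPD library. The log2 fold change was 0.32 ± 0.23 (SE) for COPD against control (adjusted p = 0.210, limma) and -0.66 ± 0.23 for WDD against COPD (adjusted p = 0.0188, limma). Without COPD 5 these values became 0.05 (adjusted p = 0.720, limma) and -0.39 (adjusted p = 0.0144, limma), so the lower level in WDD lungs stayed called at a smaller size. Scaled to the FPKM sum of all genes, the second was -0.49 and did not pass (adjusted p = 0.0802, limma). Against control lungs WDD lungs differed by -0.34 ± 0.23 (adjusted p = 0.267, limma). The difference from control lungs passed when COPD libraries, whose Hif1a levels spread most, were left out of the fit (adjusted p = 0.0155, limma).

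Pfkfb3 makes the bifunctional enzyme that raises fructose 2,6-bisphosphate, the activator of phosphofructokinase. It had 42.6, 25.6, 33.6, 42.6 and 42.5 FPKM in WDD libraries, 22.6, 36.3, 30.0, 65.2 and 209 FPKM in COPD libraries, and 58.0, 42.2, 39.3, 37.4 and 46.1 FPKM in control libraries. COPD libraries held both the lowest and the highest levels of the 15, and the groups overlapped. On the log2 scale the differences were 0.21 ± 0.42 for COPD against control, -0.46 ± 0.42 for WDD against COPD and -0.26 ± 0.42 for WDD against control, and none passed (adjusted p = 0.669, 0.341 and 0.669, limma). The first 2 depended on COPD 5 and were -0.30 and 0.04 without it (adjusted p = 0.269 and 0.889, limma).

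At the entry of glucose, Slc2a1, which encodes the widely expressed transporter GLUT1, had 8.75, 7.64, 11.1, 11.9 and 11.2 FPKM in WDD libraries, 15.1, 27.04, 18.6, 26.8 and 30.9 FPKM in COPD libraries, and 15.9, 16.0, 14.3, 17.4 and 16.2 FPKM in control libraries. Every WDD library lay below every other library, 4 of 5 COPD libraries lay above all controls, and COPD 1 lay among the controls. On the log2 scale the difference was 0.50 ± 0.18 for COPD against control (adjusted p = 0.0183, limma), -1.12 ± 0.18 for WDD against COPD (adjusted p = 6.72e-05, limma) and -0.62 ± 0.18 for WDD against control (adjusted p = 0.0117, limma). The rise in COPD lungs depended on the scaling: with the FPKM sum of all genes it was -0.04 (adjusted p = 0.856, limma) and after median-of-ratios scaling, which centres the genes near 0, it was 1.38 (adjusted p = 8.50e-06, limma). The lower level of WDD than control lungs did not pass after median-of-ratios scaling (-0.36, adjusted p = 0.139, limma).

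Hk2, an inducible hexokinase that traps glucose in the cell as glucose 6-phosphate, was the lowest of the 9 in mean level in each group and had the largest fold changes of the 9 in COPD against control and in WDD against COPD. It had 2.27, 2.17, 2.56, 2.54 and 2.59 FPKM in WDD libraries, 8.04, 12.1, 8.72, 10.3 and 36.4 FPKM in COPD libraries, and 4.66, 3.36, 3.998, 4.27 and 4.46 FPKM in control libraries. The 3 groups did not overlap at all, with COPD libraries highest, control libraries between and WDD libraries lowest. In limma the log2 fold change was 1.42 ± 0.28 for COPD against control (adjusted p = 0.000263, limma) and -2.003 ± 0.28 for WDD against COPD (adjusted p = 2.36e-05, limma). Leaving out any 1 library, these ranged from 1.06 to 1.57 and from -2.15 to -1.64. For WDD against control it was -0.58 ± 0.28, which did not pass in the fit of all 15 libraries (adjusted p = 0.119, limma). It did pass when only these 2 groups were fitted (adjusted p = 0.000843, limma) and when COPD 5 alone was left out (adjusted p = 0.00134, limma).

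Among the enzymes of the lower pathway, Pkm, which encodes the muscle-type pyruvate kinase that yields pyruvate and ATP, gave the smallest adjusted p-values of the 9 in COPD against control and in WDD against COPD. It had 144, 139, 136, 136 and 135 FPKM in WDD libraries, 306, 451, 288, 356 and 303 FPKM in COPD libraries, and 159, 179.6, 177, 177 and 196 FPKM in control libraries. All COPD libraries lay above all others and all WDD libraries below all others, and the WDD libraries lay close together. The fitted log2 difference was 0.92 ± 0.13 for COPD against control (adjusted p = 9.01e-06, limma), -1.28 ± 0.13 for WDD against COPD (adjusted p = 1.14e-06, limma) and -0.36 ± 0.13 for WDD against control (adjusted p = 0.0396, limma). The last was lost without any 1 WDD library or any 1 of control libraries 2 to 5 (highest adjusted p = 0.0981, without control 5, limma), with log2 fold changes between -0.38 and -0.32. It was -0.08 after median-of-ratios scaling (adjusted p = 0.594, limma). Gene-level FPKM does not separate the M1 and M2 splice forms of Pkm.

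Aldoa, which splits fructose 1,6-bisphosphate into trioses, had 303 to 385 FPKM in WDD libraries, 314, 658, 554, 501 and 317 FPKM in COPD libraries, and 278 to 345 FPKM in control libraries. COPD libraries 2, 3 and 4 lay above every other library, while COPD 1 and COPD 5 lay among the controls. The log2 fold change was 0.52 ± 0.19 for COPD against control (adjusted p = 0.0202, limma), and the call was lost without COPD 2 (0.38, adjusted p = 0.0572, limma) or without COPD 3 (0.45, adjusted p = 0.0540, limma). Scaled to the FPKM sum of all genes it was -0.04 (adjusted p = 0.836, limma). For WDD against COPD it was -0.39 ± 0.19 (adjusted p = 0.0826, limma), and it passed at -0.52 without COPD 1 or without COPD 5 (adjusted p = 0.0190 and 0.0185, limma).

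Pgk1, which encodes the phosphoglycerate kinase that makes the first ATP of the pathway, had 58.7 to 90.0 FPKM in WDD libraries, 108, 155, 112, 108 and 64.6 FPKM in COPD libraries, and 65.8 to 71.6 FPKM in control libraries. The first 4 COPD libraries lay above every other library and COPD 5 lay below every control and within the WDD range. On the log2 scale the difference was 0.60 ± 0.18 for COPD against control (adjusted p = 0.00776, limma) and -0.52 ± 0.18 for WDD against COPD (adjusted p = 0.0214, limma). The second was lost without COPD 2, WDD 2 or WDD 3 (adjusted p = 0.0581, 0.0516 and 0.0597, limma), at -0.38, -0.48 and -0.44. Scaled to the FPKM sum of all genes, the first was 0.04 (adjusted p = 0.847, limma).

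Eno1, the ubiquitous enolase, had 91.9 to 116 FPKM in WDD libraries, 127, 216, 166, 156 and 93.0 FPKM in COPD libraries, and 107 to 127 FPKM in control libraries. COPD libraries 2, 3 and 4 lay above every other library, COPD 1 at the top of the controls and COPD 5 below them. In limma the log2 fold change was 0.32 ± 0.18 for COPD against control (adjusted p = 0.112, limma) and passed at 0.48 without COPD 5 (adjusted p = 0.00519, limma). For WDD against COPD it was -0.51 ± 0.18 (adjusted p = 0.0195, limma), or -0.37 without COPD 2, where it did not pass (adjusted p = 0.0506, limma).

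Ldha, the lactate dehydrogenase subunit that favours the making of lactate and a textbook target of Hif1a, stood apart from the other enzymes. It had 141, 131, 134, 135 and 151 FPKM in WDD libraries, 116, 142, 117, 93.9 and 169 FPKM in COPD libraries, and 159, 138, 160.2, 159 and 170.4 FPKM in control libraries. COPD libraries 1, 3 and 4 lay below every other library, and COPD 5 was nearly as high as the highest control. The fitted log2 difference was -0.32 ± 0.14 for COPD against control (adjusted p = 0.0509, limma), 0.14 ± 0.14 for WDD against COPD (adjusted p = 0.400, limma) and -0.18 ± 0.14 for WDD against control (adjusted p = 0.341, limma). The first moved across the threshold with small changes of the data: without COPD 5 it was called lower (-0.43, adjusted p = 0.00458, limma). It turned to 0.60 after median-of-ratios scaling (adjusted p = 0.00497, limma), and scaled to the FPKM sum it was -0.89 (adjusted p = 4.11e-05, limma).

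The scaling of the libraries set how many of the 9 were called, since the deposited values of most other genes were lower in COPD than in control lungs. Median-of-ratios scaling put the median of all genes at -0.05. Then all 9 were higher in COPD than in control lungs, beside 30.0% of all tested genes, and none was lower, beside 32.6%. Their log2 fold changes then ran from 0.60 (Ldha) to 2.23 (Hk2). Under the same scaling 8 of the 9, all but Pfkfb3 (-1.10, adjusted p = 0.0583, limma), were lower in WDD than in COPD lungs, beside 21.4% of all tested genes, and none was higher, beside 23.3%. Between WDD and control lungs only Aldoa was then called, at 0.41 (adjusted p = 0.0283, limma), beside 15.7% of all tested genes called higher and 17.2% called lower. Scaled instead to the FPKM sum of all genes, which holds the mitochondrial share, Hk2 (0.94) and Pkm (0.36) were higher in COPD than in control lungs, beside 3.65% of all tested genes, and Ldha was lower, beside 82.6%. Under it Hk2 (-1.83), Pkm (-1.10) and Slc2a1 (-0.95) were lower in WDD than in COPD lungs, beside 5.19% of all tested genes, and 6 of the 9 were lower in WDD than in control lungs, beside 57.5%. None was higher in these 2 comparisons, beside 65.9% and 2.30% of all tested genes. Hk2 and Pkm in COPD against control and in WDD against COPD, and Slc2a1 in WDD against COPD, were called under all 28 other fits tried. With a log2 fold change of at least 1 required as well, Pkm in COPD against control (0.92) was not called.

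**Figure D2:**
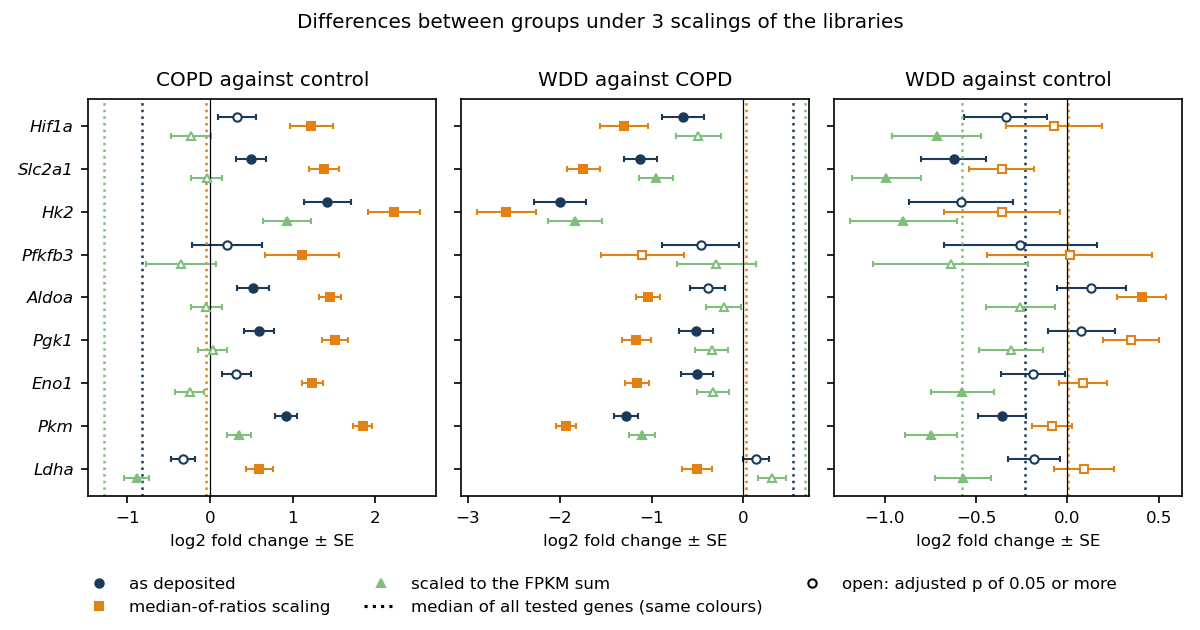
Log2 fold change ± SE (horizontal axes) of the 9 genes in each comparison, as deposited (circles), after median-of-ratios scaling (squares) and with each library divided by its FPKM sum (triangles), with filled symbols for an adjusted p under 0.05 and dotted lines at the median of all tested genes. Within a comparison the 3 scalings move all 9 genes together with the dotted lines, and Hk2 and Pkm are filled under each scaling in COPD against control and in WDD against COPD.

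The COPD libraries fell into different orders for different members. COPD 5 was the highest of the 5 for Hif1a, Slc2a1, Hk2, Pfkfb3 and Ldha, at 2.73, 1.36, 3.82, 6.31 and 1.46 times the median of the other 4. It was the lowest of the 5 for Pgk1 and Eno1, at 0.589 and 0.578 times that median. Of the lower-pathway enzymes, Ldha was thus high in this library, Pkm (0.915 times that median) near the others, and Pgk1 and Eno1 low. COPD 2 was the highest of the 5 for Aldoa, Pgk1, Eno1 and Pkm. Summed neutrophil markers were highest in COPD 2 (50282 FPKM) and lowest in COPD 5 (15077 FPKM), with COPD 1 close to it (15158 FPKM). S100a9 and S100a8 held most of these sums (26030 and 15681 FPKM in COPD 2), and other listed markers did not all order the libraries this way. Retnlg was highest in COPD 5 (691 FPKM, against 6.96 to 49.2 FPKM in the other COPD libraries). Cxcr2 was near its group's highest there (129 FPKM against 130 FPKM), while Ncf1 (32.8 FPKM) and Fpr1 (2.88 FPKM) were lowest there. These markers are named after their values were seen. COPD 1, whose mitochondrial share of 65.0% was the highest of all libraries, had the lowest levels of Slc2a1, Hk2, Pfkfb3 and Aldoa in its group. With COPD 1 and COPD 5 both left out, Hif1a in COPD against control was 0.10 (adjusted p = 0.483, limma), Aldoa 0.86 (adjusted p = 1.95e-05, limma) and Eno1 0.60 (adjusted p = 0.000377, limma). What the neutrophil and mitochondrial values of these libraries contribute to the members' levels was not tested.

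**Figure D3:**
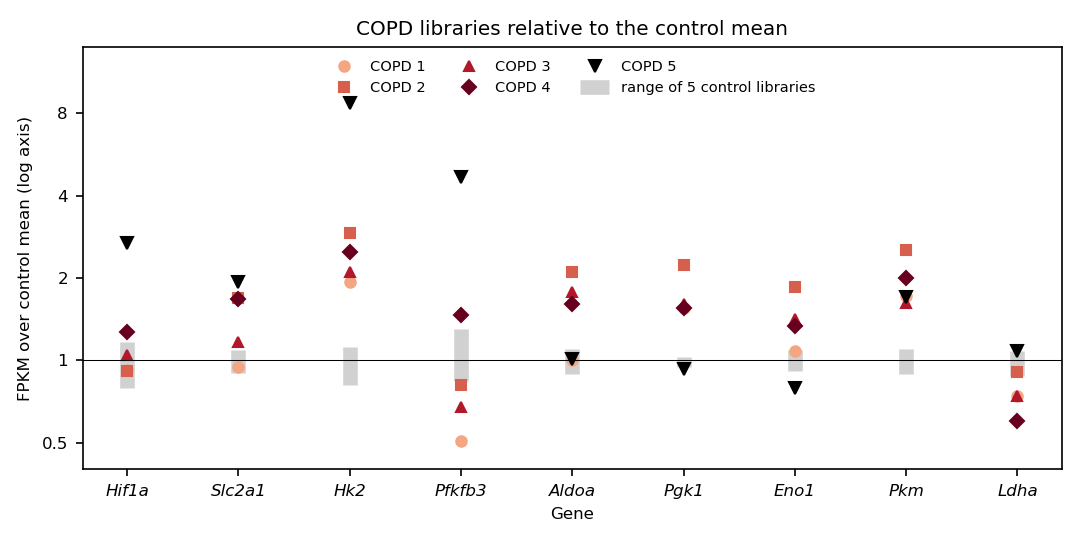
FPKM of each COPD library divided by the mean of the 5 control libraries (vertical axis, log scale) for the 9 genes, with grey bars for the range of the control libraries. COPD 5 (black) is the highest point in Hif1a, Slc2a1, Hk2, Pfkfb3 and Ldha and the lowest in Pgk1 and Eno1, and COPD 2 (squares) is the highest in Aldoa, Pgk1, Eno1 and Pkm.

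Ratios of related genes inside a library depend little on how libraries are scaled, and 9 of them, taken as log2 ratios of FPKM + 1, were compared in the 3 comparisons by exact permutation tests (two-sided, 27 tests, Benjamini-Hochberg over all 27). Of these, 17 passed an adjusted p of 0.05, among them 2 of the pair Slc2a1 and Slc2a3 discussed last, and an exact p of 0.00794 became an adjusted p of 0.0134. Because of the added 1, ratios with a low gene such as Aldoc still move with the scaling. With a pseudocount of 0.1, 15 tests passed, and the 2 lost were those of Slc2a1 and Slc2a3. A pair compares genes of unequal length, so the measure of long and short transcripts above could still touch it, which was not tested.

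Hk2 was set against Hk1, the hexokinase of most resting tissues, and Hk3, an isoform known from white blood cells. The log2 ratio of Hk2 to Hk1 was -2.58 ± 0.12 in WDD lungs, -0.86 ± 0.18 in COPD lungs and -2.46 ± 0.34 in control lungs (mean ± SD, n = 5 each). COPD libraries lay above all others (exact permutation p = 0.00794 against either group), and WDD and control lungs overlapped (exact permutation p = 0.516). Hk2 thus moved beyond Hk1. Against Hk3 it did not: that log2 ratio was -0.39 ± 0.23 in WDD lungs, -0.88 ± 1.18 in COPD lungs and -0.34 ± 0.18 in control lungs, and no pair of groups passed (exact permutation p = 0.357 to 0.738). The first 4 COPD libraries had -1.23, -1.43, -1.34 and -1.62, below every control, and COPD 5 had 1.22, above every control. Hk3 itself had 15.1 to 34.1 FPKM in COPD lungs against 4.49 to 7.44 FPKM in control lungs, and was lowest in COPD 5. Its log2 fold change was 1.96 ± 0.20 (adjusted p = 2.84e-07, limma).

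The makeup of lactate dehydrogenase, whose Ldhb subunit favours the use of lactate, set WDD lungs apart from both other groups. The log2 ratio of Ldha to Ldhb was 1.25 ± 0.13 in WDD lungs, 2.38 ± 0.53 in COPD lungs and 2.36 ± 0.47 in control lungs. All WDD libraries lay below all others (exact permutation p = 0.00794 against either group), and COPD differed from control lungs by 0.02 (exact permutation p = 0.913). The difference came with Ldhb, which had 52.3 to 64.6 FPKM in WDD lungs, 15.2 to 28.6 FPKM in COPD lungs and 22.8 to 41.1 FPKM in control lungs. Ldhb was called higher in WDD lungs than in COPD lungs (1.27 ± 0.19, adjusted p = 4.50e-05, limma) and than in control lungs (0.92 ± 0.19, adjusted p = 0.00151, limma).

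Pkm and Ldha, neighbours in the pathway, parted in COPD lungs. Their log2 ratio was -0.00 ± 0.09 in WDD lungs, 1.42 ± 0.41 in COPD lungs and 0.18 ± 0.14 in control lungs. COPD libraries lay above all others (exact permutation p = 0.00794 against either group), with the lowest, 0.83, in COPD 5, and WDD lungs did not pass against control lungs after adjustment (exact permutation p = 0.0397, adjusted p = 0.0595). Aldoa parted from Aldoc, the isoform best known from brain, in the same way, at log2 ratios of 5.78 ± 0.20 in WDD lungs, 7.51 ± 0.68 in COPD lungs and 5.59 ± 0.08 in control lungs. COPD libraries again stood above all others (exact permutation p = 0.00794 against either group). The log2 ratio of Eno1 to Eno3, the muscle enolase, was 2.596 ± 0.22 in WDD lungs, 3.997 ± 0.19 in COPD lungs and 3.30 ± 0.34 in control lungs. All 3 pairs of groups passed, with the highest exact permutation p, 0.0159, for COPD against control lungs, where control 2 overlapped the COPD libraries. Among listed muscle markers, Myh7 was at 0 in all WDD and COPD libraries, and the sum of the 10 ran from 15.6 to 36.4 FPKM in WDD lungs, from 21.0 to 43.0 FPKM in COPD lungs and from 18.8 to 36.3 FPKM in control lungs. Single markers moved in opposite directions, which the sum hides. Of the 5 tested, 2 were higher and 2 lower in COPD than in control lungs, beside 8.23% and 66.4% of all genes.

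Hif1a was set against Epas1, the gene of the HIF2 alpha subunit, which is abundant in lung endothelium. The log2 ratio was -4.70 ± 0.08 in WDD lungs, -2.66 ± 0.50 in COPD lungs and -4.86 ± 0.37 in control lungs. COPD libraries lay above all others (exact permutation p = 0.00794 against either group), and WDD and control lungs overlapped (exact permutation p = 0.5). Epas1 had 507 to 680 FPKM in WDD lungs, 148 to 503 FPKM in COPD lungs and 744 to 1103 FPKM in control lungs. Epas1 was lower in COPD than in control lungs by 1.88 ± 0.26 on the log2 scale (adjusted p = 8.06e-06, limma). Of 6 tested endothelial markers, 5 were lower there, beside 66.4% of all genes. After median-of-ratios scaling 3 of the 6 were lower, beside 32.6%. Sums of the listed endothelial markers ran from 112 to 270 FPKM in COPD lungs against 458 to 591 FPKM in control lungs, with Cldn5 at 0 in all libraries. The ratio of Pfkfb3 to Pfkfb2, another isoform of the bifunctional enzyme, was higher in both exposed groups than in control lungs, at 2.64 ± 0.35 in WDD lungs, 3.54 ± 1.44 in COPD lungs and 1.70 ± 0.25 in control lungs (exact permutation p = 0.00794 for both). WDD and COPD lungs overlapped in it (exact permutation p = 0.206). Pfkfb2 had 4.57 to 5.41 FPKM in WDD lungs, 2.37 to 4.14 FPKM in COPD lungs and 10.1 to 15.5 FPKM in control lungs. As deposited, Pfkfb3 itself passed in no comparison. Slc2a1 against Slc2a3 gave no usable ratio, since Slc2a3 lay between 0 and 0.363 FPKM in every library and the sign of the difference between WDD and COPD lungs turned with the pseudocount.

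**Figure D4:**
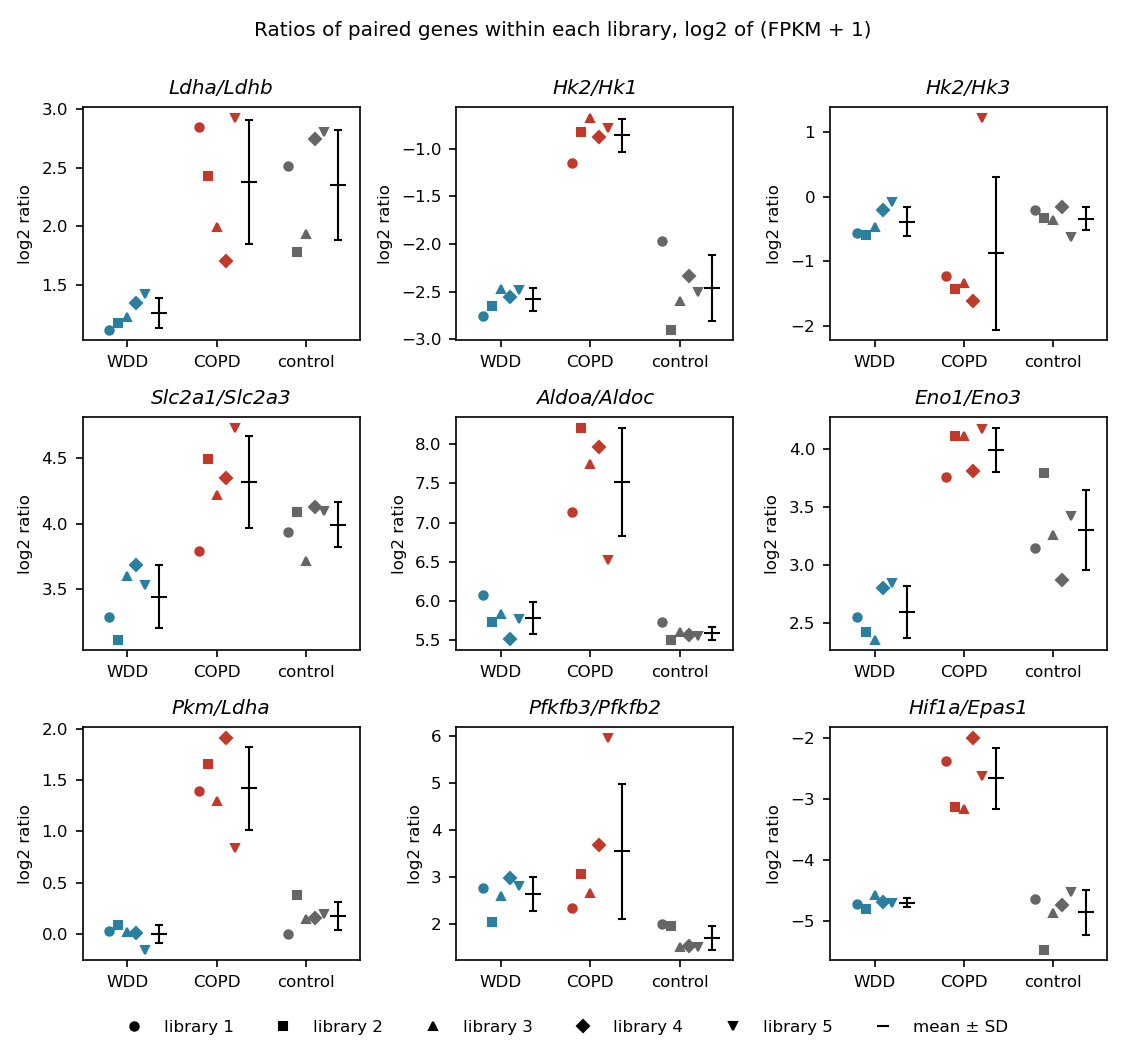
Log2 ratios of 9 pairs of genes within each library (vertical axes), for the 5 WDD, 5 COPD and 5 control libraries, with mean and SD beside each group. COPD libraries stand apart in Hk2/Hk1, Aldoa/Aldoc, Pkm/Ldha and Hif1a/Epas1, WDD libraries stand apart in Ldha/Ldhb, and COPD 5 is far above its group in Hk2/Hk3 and Pfkfb3/Pfkfb2.

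Of 18 other glycolytic enzymes and isoforms tested, 1, Hk3 described above, was higher in COPD than in control lungs and 9 were lower. These counts stood beside 8.23% and 66.4% of all genes. The other 8 did not pass, and the list median was -0.58 against -0.81 over all genes. The muscle-type phosphofructokinase gene Pfkm fell to 0.759 to 2.19 FPKM in COPD lungs, against 8.81 to 12.1 FPKM in control lungs (-2.07 ± 0.16, adjusted p = 2.34e-08, limma). Other phosphofructokinase genes, named after their values were seen, stood at higher levels. Pfkl had 16.5 to 23.3 FPKM in COPD lungs against 32.9 to 47.9 FPKM in control lungs. Pfkp had 7.78, 11.7, 8.35, 6.33 and 61.5 FPKM in COPD libraries 1 to 5 against 17.5 to 21.1 FPKM in control lungs. All COPD libraries but COPD 5 lay below every control library in Pfkp. Pfkfb1 and Pfkfb2 had log2 fold changes of -1.71 ± 0.17 and -1.63 ± 0.14. Aldoc had -1.40 ± 0.17 (adjusted p = 1.50e-06, limma), or -0.32 after quantile normalisation, where it was not called (adjusted p = 0.163, limma). In WDD against COPD lungs 10 of the 18 were higher, beside 57.1% of all genes, and 1, Hk3, was lower (-2.49 ± 0.20), while median-of-ratios scaling gave 4 higher and 5 lower. Pfkm was higher there by 1.87 ± 0.16. Against control lungs 2 were higher in WDD lungs, Ldhb and Bpgm (0.77 ± 0.18), and 5 were lower, beside 6.35% and 31.0% of all genes. Bpgm makes 2,3-bisphosphoglycerate in red cells, and scaled to the FPKM sum of all genes it was 0.40 and not called (adjusted p = 0.0687, limma). Summed red cell markers (6 genes) ran from 4896 to 13736 FPKM in WDD lungs and from 367 to 6610 FPKM in control lungs, and their part in the Bpgm value was not tested. After median-of-ratios scaling 7 of the 18 were higher and 5 lower in COPD than in control lungs, beside 30.0% and 32.6% of all genes.

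Of 11 tested glucose and lactate transporter genes, 9 were lower in COPD than in control lungs, beside 66.4% of all genes, and 1 was higher, with a list median of -1.24 against -0.81. After median-of-ratios scaling 6 were lower and 2 higher. The gene higher as deposited, Slc16a3, encodes MCT4, which exports lactate from strongly glycolytic cells and is itself a listed HIF target. It had 5.43, 5.81, 5.03, 7.38 and 7.41 FPKM in WDD libraries, 69.3, 80.4, 56.1, 69.8 and 25.5 FPKM in COPD libraries, and 5.29, 5.36, 6.40, 7.13 and 5.11 FPKM in control libraries. COPD libraries stood far above all others, with COPD 5 the lowest of them, and WDD and control libraries overlapped. The log2 fold change was 3.07 ± 0.24 for COPD against control (adjusted p = 1.95e-08, limma), -3.00 ± 0.24 for WDD against COPD (adjusted p = 1.27e-07, limma) and 0.07 ± 0.24 for WDD against control (adjusted p = 0.855, limma). Its chaperone Bsg went the other way, at 264 to 311 FPKM in WDD lungs, 36.2 to 92.0 FPKM in COPD lungs and 282 to 394 FPKM in control lungs (-2.37 ± 0.21 for COPD against control and 2.26 ± 0.21 for WDD against COPD). The sodium-coupled glucose transporter gene Slc5a1, found in alveolar epithelium, had -2.75 ± 0.19 in COPD against control lungs. Slc16a1, the gene of MCT1, fell in COPD lungs as deposited (-0.80 ± 0.14, adjusted p = 5.48e-05, limma) but was at 0.00 after median-of-ratios scaling.

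Of 14 genes for HIF subunits and oxygen sensing, 2 (Elob and Eloc, subunits of the Vhl complex, named after their values were seen) were higher and 9 lower in COPD than in control lungs, beside 8.23% and 66.4% of all genes, with a median of -0.50 against -0.81 over all genes. After median-of-ratios scaling 7 were higher and 4 lower. Hif3a, whose protein can restrain HIF activity, had 0.899 to 1.71 FPKM in WDD lungs, 0 to 0.390 FPKM in COPD lungs and 4.29 to 12.4 FPKM in control lungs. The 3 groups did not overlap, and the log2 fold change on the log2(FPKM + 1) scale, which understates changes of low genes, was -2.99 ± 0.22 for COPD against control (adjusted p = 1.14e-08, limma) and -1.99 ± 0.22 for WDD against control (adjusted p = 2.64e-05, limma). Arnt, the partner of Hif1a, was lower than in control lungs in both COPD (-1.70 ± 0.19) and WDD lungs (-1.30 ± 0.19). Vhl had -1.29 ± 0.13 in COPD and -0.50 ± 0.13 in WDD lungs. After quantile normalisation Arnt was at -0.95 in COPD and -1.11 in WDD lungs. Vhl was then at -0.37 in COPD lungs and at -0.19 in WDD lungs, the last not called (adjusted p = 0.313, limma). In WDD against COPD lungs 5 of the 14 were higher and 0 were lower, beside 57.1% and 6.63% of all genes. After median-of-ratios scaling 2 were higher and 4 lower, beside 23.3% and 21.4% of all genes.

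Listed HIF targets outside glycolysis split by gene. Of 27 tested, 6 were higher and 16 lower in COPD than in control lungs, beside 8.23% and 66.4% of all genes. Their median was -0.69 against -0.81 over all genes. Those higher included Slc16a3 and Hmox1, and also Angptl4, Nos2 and Adm, which are named after their values were seen. Hmox1, the haem-degrading stress enzyme, had 77.3 to 104 FPKM in COPD lungs against 28.1 to 41.0 FPKM in control lungs (1.38 ± 0.14, adjusted p = 2.25e-07, limma). Nos2 is also known as a gene that LPS and cytokines induce. Vegfa, the vascular growth factor gene and a classical HIF target, had 44.1 to 102 FPKM in COPD lungs against 409 to 581 FPKM in control lungs (-2.45 ± 0.22, adjusted p = 6.29e-08, limma). The collagen prolyl hydroxylase gene P4ha1 and the mitophagy gene Bnip3 had -2.32 ± 0.15 and -0.95 ± 0.11, the second close to the median of all genes. After quantile normalisation P4ha1 was at -1.81 and Bnip3 at -0.28. In WDD against COPD lungs, with the COPD libraries shared, 13 of the 27 were higher and 6 lower, beside 57.1% and 6.63% of all genes, while median-of-ratios scaling gave 6 higher and 10 lower. There Hmox1 had -1.90 ± 0.14 and Vegfa 2.02 ± 0.22, with 278 to 422 FPKM of Vegfa in WDD lungs. After median-of-ratios scaling 12 were higher and 8 lower in COPD than in control lungs, beside 30.0% and 32.6% of all genes. Vegfa stayed lower (-1.53).

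**Figure D5:**
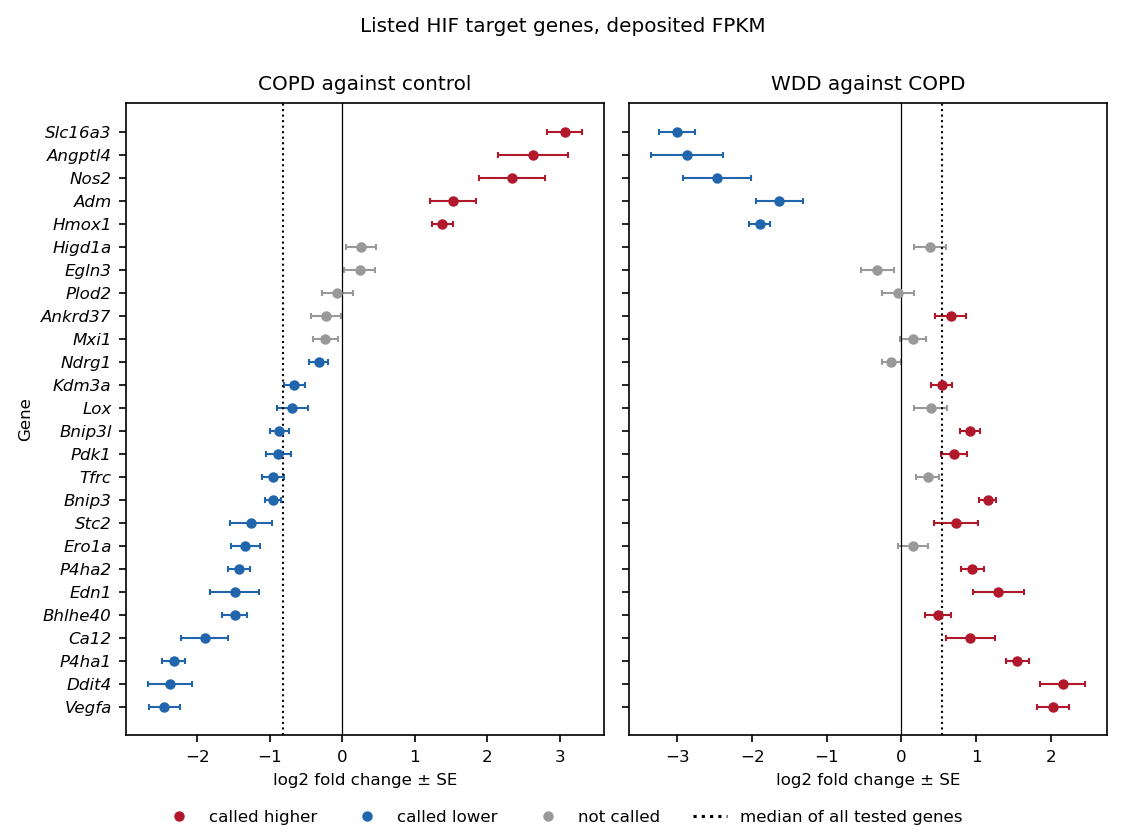
Log2 fold change ± SE (horizontal axes) of listed HIF target genes, with 1 tested gene not drawn, in COPD against control lungs and in WDD against COPD lungs, coloured by call at an adjusted p under 0.05 (limma), with dotted lines at the median of all tested genes (-0.81 and 0.54). In COPD against control lungs Slc16a3 (3.07) and Hmox1 (1.38) are among the genes called higher and Vegfa (-2.45) among those called lower, and the panels share the COPD libraries.

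Downstream and beside glycolysis, 9 of 13 tested genes of pyruvate entry to mitochondria were lower and 1 was higher in COPD than in control lungs, a share close to the 66.4% of all genes. The kinases that switch off pyruvate dehydrogenase parted: Pdk4 (-2.43 ± 0.35) and Pdk2 (-2.10 ± 0.21) were lower, and Pdk3 was higher (0.52 ± 0.15, adjusted p = 0.00473, limma), although Pdk3 was at -0.02 when scaled to the FPKM sum. After median-of-ratios scaling 4 of the 13 were higher and 3 lower. The pentose phosphate pathway feeds NADPH to the neutrophil oxidase. Of its 7 tested genes, 4 were higher and 1 lower in COPD than in control lungs, beside 8.23% and 66.4% of all genes. Their median was 0.46 against -0.81 over all genes. After median-of-ratios scaling 6 were higher and 0 lower, beside 30.0% and 32.6% of all genes. Taldo1, for the transaldolase of the pathway's reversible branch, had 146 to 179.8 FPKM in WDD libraries, 208, 369, 278, 279.7 and 159 FPKM in COPD libraries, and 139 to 174 FPKM in control libraries. The first 4 COPD libraries lay above all others and COPD 5 lay among the controls. Its log2 fold change was 0.72 ± 0.18 for COPD against control (adjusted p = 0.00198, limma) and -0.58 ± 0.18 for WDD against COPD (adjusted p = 0.0110, limma). Scaled to the FPKM sum of all genes, the first was 0.15 and did not pass (adjusted p = 0.418, limma). The neutrophil markers given above moved with the same groups, and their part was not tested. Of 12 gluconeogenesis and glycogen genes, 7 were lower and 1 higher in COPD than in control lungs, beside 66.4% and 8.23% of all genes. The 1 higher was the glycogen phosphorylase gene Pygl, known from liver and white blood cells. After median-of-ratios scaling 4 were higher and 3 lower, beside 30.0% and 32.6% of all genes. Pygl had 0.59 ± 0.19 (adjusted p = 0.0108, limma), or 0.04 when scaled to the FPKM sum (adjusted p = 0.855, limma), and the brain form Pygb -2.53 ± 0.17 (adjusted p = 6.35e-09, limma).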

How the data were processed

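Lung RNA was extracted with TRIzol and made into libraries with a NEBNext Ultra kit, per the labels' protocols. The submitters' processing notes name cutadapt, HISAT2 and StringTie, without versions, and the build Rnor_6.0. The authors deposited 1 table of FPKM values for 22250 genes in 15 libraries. For the annotation release, the use of strand and the handling of fragments that map to several places: not given in the sources used here. Fragment totals are not given either, so depth in fragments is unknown. The most frequent ratio of FPKM values under 0.5 put the libraries between 0.879 and 1.11 times the depth of control 2. No 2 libraries held identical values.

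The 13172 genes that reached an FPKM of 1 in 5 or more libraries were tested with limma 3.58.1 in R 4.3.3 on log2(FPKM + 1), with all 15 libraries fitted by group, a variance trend and Benjamini-Hochberg adjustment over all tested genes. Fold changes are on that scale, which understates changes of low genes. Ratios and shares were compared by exact permutation tests over 252 splits in Python 3.11.15. The fit was tested on simulated data with independent noise and changes in a small set of genes. That setting does not cover shifts of whole libraries such as those described above. The alternatives were other pseudocounts, filters, scalings and fits, each library left out, and COPD 1 and COPD 5 left out together. The members and lists were chosen with earlier results of these data known. Other genes, except those said in the text to be named after their values were seen, are named by 1 rule: up to 4 of lowest p per list and comparison, the denominators of the ratios, and the 3 genes most alike Hif1a, Pfkfb3 and Ldha by Spearman's rho. Promoter sequences were read from RefSeq's table for GRCr8 and no coordinates of the 2 builds were mixed. Some results for other genes of the lists are not reported here.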

Additional observations from a re-analysis of the deposited data

Results flagged for a closer look

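In 27 groups of 5 libraries (9 genes, 3 groups), 4 values stood apart from their group by Dixon's test, in which the gap to the nearest library is divided by the range and set against 0.71. Chance flags about 1 in 20 groups. Hk2 had 36.4 FPKM in COPD 5 (gap over range 0.857), Hif1a had 80.6 FPKM in the same library (0.802) and Pfkfb3 had 209 FPKM there (0.772). Hif1a also had 20.2 FPKM in WDD 3, the lowest of its group (0.713). The other WDD libraries lay between 23.5 and 24.8 FPKM for Hif1a, a narrow range, so this gap is small in FPKM. The levels in COPD 5 carried the sign of the Pfkfb3 differences and the size of the Hif1a differences, as the values without that library in the report show.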

How the results depend on the processing

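Members higher in COPD than in control lungs numbered 5, or 9 after median-of-ratios scaling, 2 scaled to the FPKM sum and 1 at a log2 fold change of at least 1. Members lower there numbered 0, or 1 (Ldha) with a pseudocount of 0.1, without a filter, scaled to the FPKM sum, with library weights or without COPD 1 and COPD 5. Members lower in WDD than in COPD lungs numbered 6, or 3 scaled to the FPKM sum and 3 at a log2 fold change of at least 1. Between WDD and control lungs 2 were lower, or 0 after median-of-ratios scaling (with 1 higher), 6 scaled to the FPKM sum, 5 with library weights, 4 with the 2 groups alone, 4 without COPD 1 and COPD 5, 1 with the replicate block and 0 at a log2 fold change of at least 1. With the 2 groups alone, Aldoa in COPD against control (adjusted p = 0.0537, limma) and Pgk1 and Eno1 in WDD against COPD (adjusted p = 0.0566 and 0.0513, limma) were not called.

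Leaving out 1 library at a time, members higher in COPD lungs numbered 4 to 6 and lower 0 to 1, members lower in WDD than in COPD lungs 4 to 7 and than in control lungs 1 to 4. All genes called numbered 9833 for COPD against control (9518 to 10225 with a library left out, 5840 at a log2 fold change of at least 1). For WDD against COPD they numbered 8399 (7705 to 8771, 3314 at that fold change, 5379 after quantile normalisation), and for WDD against control 4915 (4045 to 6086, 1382 at that fold change, 7883 scaled to the FPKM sum, 8209 with library weights). Of the ratio tests 17 to 19 passed with a library left out and 15 with a pseudocount of 0.1, and the mitochondrial share differed by 31.7 to 39.5, -25.9 to -18.1 and 12.5 to 14.3 percentage points in the 3 comparisons.

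Some signs turned. In COPD against control these were Slc2a1 (-0.037), Aldoa (-0.043), Bpgm (-0.48) and Pdk3 (-0.023) scaled to the FPKM sum, Ldha (0.60), Ldhb (0.55), Eno3 (0.46) and Slc16a1 (0.0038) after median-of-ratios scaling, and Eno3 (0.52) and Slc16a1 (0.17) after quantile normalisation. In WDD against COPD they were Ldha (-0.51), Pfkfb2 (-0.086) and Bhlhe40 (-0.13) after median-of-ratios scaling, Pfkfb2 (-0.20) and Ero1a (-0.47) after quantile normalisation, and the log2 ratio of Slc2a1 to Slc2a3 (0.19) with a pseudocount of 0.1. Sign changes of values that passed in neither setting are not counted, and the cause was not tested. Same-numbered libraries deviated together (correlation above 0.1) in 1 of 15 pairs (-0.20 to 0.14). This gave no sign that the numbers pair the samples, although a weak pairing need not show in such correlations. With the replicate block Pkm in WDD against control had an adjusted p of 0.0702 (limma). Fragment totals are unknown, so no counting error can be given for low genes such as Slc2a3.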

Other observations

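The genes most alike 3 of the members over the 15 libraries are given as a description, since all points share libraries, scaling and groups. For Hif1a they were Cp, which encodes ceruloplasmin (Spearman's rho 0.92, n = 15), Far1 (0.91) and the Toll-like receptor gene Tlr6 (0.89). For Pfkfb3 they were Arg2, an arginase gene (0.86), Enc1 (0.85) and F3, which encodes tissue factor (0.83). For Ldha they were Cnp (0.91), the connexin gene Gja1 (0.90) and RT1-M3-1 (0.90).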
